A study of Mus musculus with 6 samples.

Results

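The genes described here carry a peptide from the proteasome to a class I molecule in the endoplasmic reticulum. They were 10 genes taken by symbol from the table of normalized counts: Psmb8, Psmb9 and Psmb10 (immunoproteasome), Psme1 and Psme2 (proteasome activator PA28), Tap1 and Tap2 (peptide transporter), Tapbp and Tapbpl (peptide editors) and Erap1 (peptide trimming). All 10 were found among the 55357 genes of the table, and all 10 passed the filter on low values that left 15280 genes for testing. RNA-seq was performed in 6 primary astrocyte cultures prepared from cortices of C57BL/6 mouse embryos on embryonic day 18. The 3 BRAF KE–transfected cultures (KE) received a plasmid in which the CMV promoter, active in most cell types, drives FLAG-tagged BRAF carrying K499E, and RNA was collected 48 hours later. For its stained astrocytes the paper describes a GFP plasmid given along with it. The paper's text does not say whether the sequenced KE cultures also received GFP. The 3 nontransfected cultures (NT) received no plasmid, and their genotype label was naive. No empty-plasmid culture and no culture given BRAF WT was analysed here, so the effects of transfection and of BRAF KE cannot be told apart in any comparison that follows. The labels number the cultures within a group without saying whether they came from separate litters, so p-values measure only the spread between these cultures. The question put to these cultures was which transcripts differ once astrocytes carry the mutant kinase.

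Class I molecules show peptides cut from a cell's own proteins to CD8+ T cells. In most cells the proteasome uses 3 constitutive catalytic subunits, and under interferon these are replaced in newly assembled particles by the immunosubunits, which change the peptides that are cut. TAP then pumps peptides into the endoplasmic reticulum, where ERAP1 trims them and tapasin and its relative TAPBPR select those that bind a class I heavy chain and beta-2 microglobulin. Resting astrocytes are known for low levels of this machinery, and microglia for higher ones.

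The table holds gene counts divided by a size factor for each culture. Its column totals were 30472429 to 30895529, and the depth before scaling was estimated at 24500000 reads in KE replicate 2, the shallowest culture, and at up to 34100000 in the others. Braf, whose product the plasmid encodes, was at 34933 to 40978 in KE and 811 to 946 in NT, so every culture matched its label. Of 12 astrocyte markers, all were detected, although S100b was at 11.8 to 22.6 in KE. The 16 markers of microglia and macrophages were all called lower in KE (median log2FC -3.29), and their summed level was 6283 to 8691 in KE and 50618 to 59703 in NT. Over all tested genes, 26.0% were called lower in KE, and 29.9% had all 3 KE values below all 3 NT values, as all 16 of these markers did. Because RNA came from whole cultures, fewer cells of a type and less RNA per cell cannot be told apart.

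All 10 antigen-processing genes were upregulated in BRAF KE–transfected astrocytes. Their log2FC, the difference KE minus NT in log2(normalized count + 1), ran from 0.73 to 1.79 with a median of 1.44, while the median over all tested genes was 0. In each of the 10, the lowest KE culture lay above the highest NT culture. Among all tested genes, 25.3% were called higher in KE at a limma adjusted p under 0.05, and 30.1% had all 3 KE values above all 3 NT values. Sizes over 1 were rarer: 724 genes (4.74%) were called higher with a log2FC over 1, and 8 of the antigen-processing genes belong to them.

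**Figure D1:**
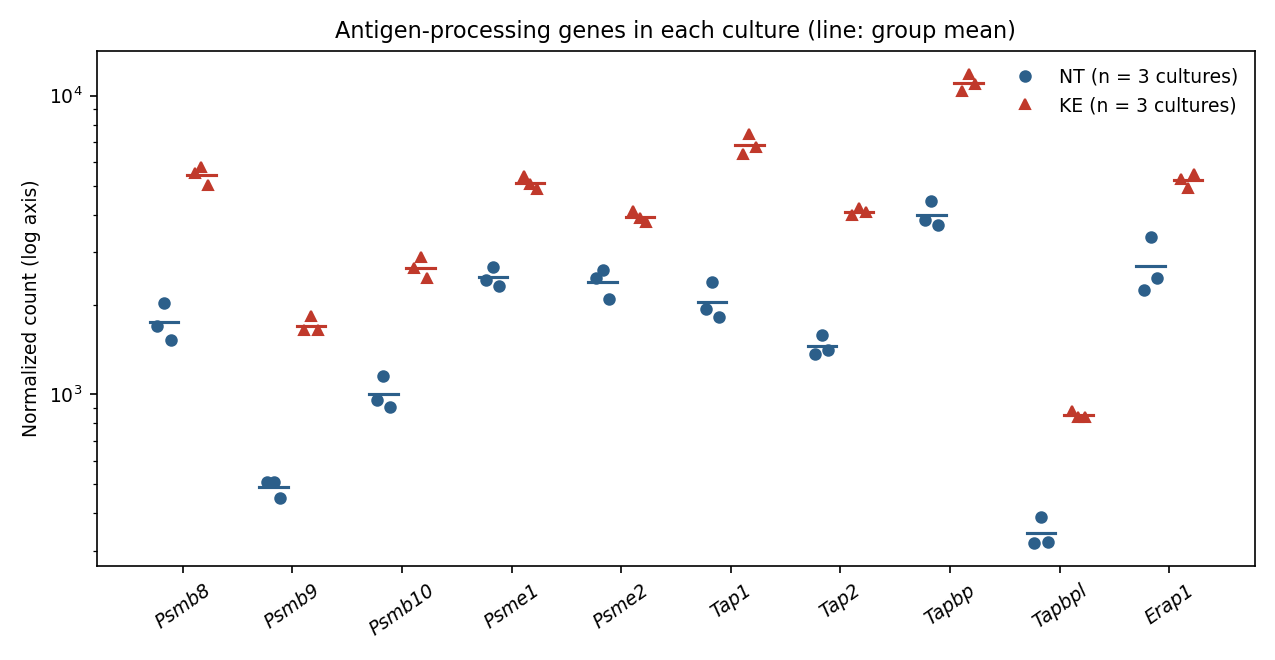
Normalized counts (log axis) of the 10 antigen-processing genes in each culture, with circles for NT, triangles for KE and a line for the mean of 3 cultures. The groups do not overlap for any gene, and the gap is widest for Psmb9 and narrowest for Psme2.

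The immunosubunits were the first group. Psmb8 encodes beta5i, the chymotrypsin-like immunosubunit (ENSMUSG00000024338, chr17:34416690-34420428, plus strand, GRCm39). Its normalized count was 5526, 5764 and 5038 in KE replicates 1 to 3 and 1692, 2016 and 1518 in NT replicates 1 to 3. The lowest KE culture was about 2.5 times the highest NT culture. Means of 5443 ± 370 and 1742 ± 253 (SD, n = 3 each) gave a log2FC of 1.65 ± 0.10 (SE), with a limma adjusted p of 1.7e-07. Its promoter is shown because it holds the only GAS match among the antigen-processing genes with a promoter in the table used. GAS, the element named for interferon gamma activation, was searched as TTCNNNGAA on both strands. The sequence is RefSeq's on GRCm38.p6, chr17:34197945-34198224, plus strand, from 250 bases before the start to 30 after, with the match in capitals.
Psmb8: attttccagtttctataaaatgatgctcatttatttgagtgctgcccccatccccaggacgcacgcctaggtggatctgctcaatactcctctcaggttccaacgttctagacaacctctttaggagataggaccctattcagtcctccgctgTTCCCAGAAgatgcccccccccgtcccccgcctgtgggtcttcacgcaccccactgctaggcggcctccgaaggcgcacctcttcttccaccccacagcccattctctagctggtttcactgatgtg

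Psmb9 encodes beta1i (ENSMUSG00000096727, chr17:34400960-34406738, minus strand). It was at 1639, 1825 and 1638 in KE and at 511, 510 and 452 in NT, which made it the gene of the 10 with the widest separation, its lowest KE value being 3.21 times its highest NT value. Its log2FC of 1.79 ± 0.08 was the largest of the 10 (limma adjusted p = 3e-08), and 250 tested genes had a larger one. Psmb10 encodes beta2i, the trypsin-like immunosubunit (ENSMUSG00000031897, chr8:106662362-106665077, minus strand). It was at 2643, 2893 and 2445 in KE and at 958, 1155 and 906 in NT, again without overlap. Its log2FC was 1.41 ± 0.10 (limma adjusted p = 5.6e-07). The 95% intervals of Psmb9 (1.61 to 1.97) and Psmb10 (1.20 to 1.62) overlapped only at their ends.

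The constitutive subunits that the immunosubunits replace did not pass the test. Psmb5, the partner of Psmb8, was at 3181 ± 295 in KE and 2931 ± 107 in NT (log2FC 0.11, 95% interval -0.05 to 0.27, limma adjusted p = 0.21). It was called only when KE replicate 3 was left out, at a log2FC of 0.19. Psmb6, the partner of Psmb9, had a log2FC of -0.06 (interval -0.21 to 0.09) and Psmb7, the partner of Psmb10, of -0.10 (interval -0.23 to 0.02), with its 3 KE values below its 3 NT values. All 3 intervals exclude a log2FC above 0.27, below the lowest log2FC of any antigen-processing gene.

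Dividing each normalized count by the length of the gene's longest coding transcript gave the immunosubunit share of each catalytic pair. Psmb8 made up 62.6%, 63% and 64% of the Psmb8 and Psmb5 signal in KE replicates 1 to 3, and 37.5%, 40.8% and 33.3% in NT replicates 1 to 3. Psmb9 made up 32.6%, 33.6% and 35.2% of its pair with Psmb6 in KE and 12.6%, 13% and 11.7% in NT. Psmb10 made up 60.8%, 63.6% and 61.3% of its pair with Psmb7 in KE and 35%, 40% and 34% in NT. In each pair the shares of the groups did not overlap. The mean share was higher in KE by 26.0, 21.4 and 25.6 percentage points, more than the SD of any group (0.67 to 3.75 points). The exact two-sided permutation test gave p = 0.1 for each pair (0.1 after Benjamini-Hochberg adjustment over 3), the smallest value that 3 cultures against 3 allow. The level of a share depends on the length used: by coding length Psmb10 was at 38.2% in KE and 17.9% in NT, and Psmb8 at 62.1% and 36.2%. These are shares of transcripts, and no protein or assembled particle was measured.

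**Figure D2:**
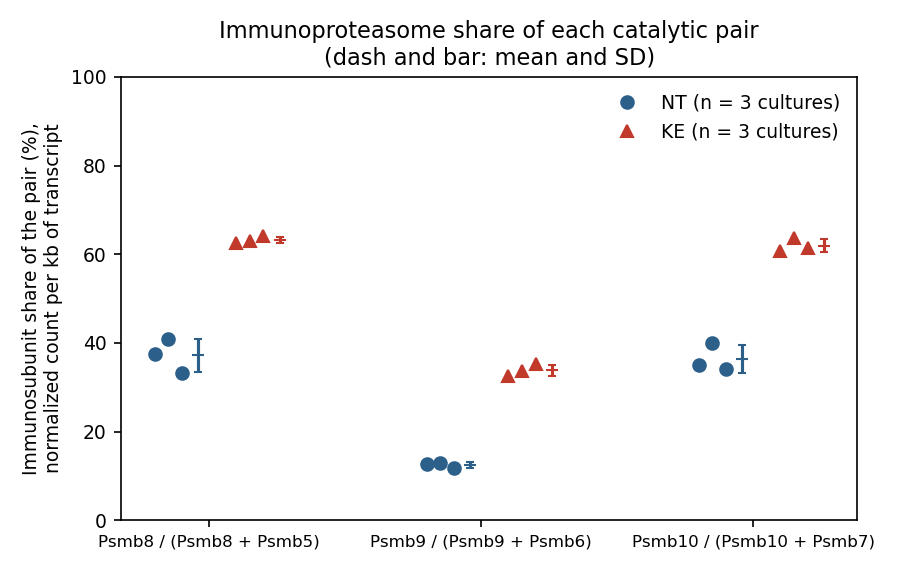
Immunosubunit share of each catalytic pair (%, normalized counts per kb of the longest coding transcript), with circles for NT, triangles for KE and a dash with bar for the mean and SD of 3 cultures. In KE the Psmb8 and Psmb10 shares lie at or above 60.8% and in NT at or below 40.8%, while the Psmb9 share stays the lowest in both groups. The level depends on the length used: by coding length the mean Psmb10 share is 38.2% in KE and 17.9% in NT.

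PA28 is a ring of alpha and beta chains that opens the gate of the 20S core. Psme1 encodes the alpha chain (ENSMUSG00000022216, chr14:55815190-55822034, plus strand) and was at 5405, 5077 and 4856 in KE and 2422, 2670 and 2303 in NT. Its log2FC was 1.05 ± 0.07 (limma adjusted p = 4.1e-07). Psme2 encodes the beta chain (ENSMUSG00000079197, chr14:55824895-55829173, minus strand), and its normalized count was 4102, 3909 and 3791 in KE and 2445, 2619 and 2088 in NT. With a log2FC of 0.73 ± 0.08 (limma adjusted p = 2.4e-05), Psme2 rose least of the 10, and its lowest KE culture was 1.45 times its highest NT culture. Its near-identical copy Psme2b, on another chromosome, had a log2FC of 0.61 (limma adjusted p = 0.0029) at 251 ± 26.7 in KE and 164 ± 18.2 in NT; reads could be split between the copies, so the Psme2 values are uncertain to that extent. The promoter of Psme1 is shown for its match to the core of the ISRE, the interferon-stimulated response element bound by IRF proteins and ISGF3, searched as GAAANNGAAA on both strands. The sequence is RefSeq's on GRCm38.p6, chr14:55578244-55578523, plus strand, with the match, read on the other strand, in capitals.
Psme1: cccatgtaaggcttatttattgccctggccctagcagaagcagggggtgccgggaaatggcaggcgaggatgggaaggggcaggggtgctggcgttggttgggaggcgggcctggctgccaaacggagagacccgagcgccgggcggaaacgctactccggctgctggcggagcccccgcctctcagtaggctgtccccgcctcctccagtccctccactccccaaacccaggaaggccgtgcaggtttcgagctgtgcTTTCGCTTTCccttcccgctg

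Tap1 and Tap2 encode the paired chains of the transporter. Tap1 (ENSMUSG00000037321, chr17:34405996-34416199, plus strand) was at 6370, 7432 and 6713 in KE and at 1931, 2373 and 1823 in NT. Its log2FC was 1.75 ± 0.09 (limma adjusted p = 1.1e-07). Tap2 (ENSMUSG00000024339, chr17:34422501-34435829, plus strand) was at 3995, 4211 and 4070 in KE and at 1367, 1586 and 1408 in NT, with a log2FC of 1.5 ± 0.07 (limma adjusted p = 3e-08). Both chains of TAP were higher in each KE culture than in any NT culture. The lowest KE culture was 2.68 times the highest NT culture for Tap1 and 2.52 times for Tap2. Tap1 and Psmb9 begin side by side: their RefSeq starts lie 226 bases apart on opposite strands, and their promoter windows share 275 identical bases. That shared stretch is why the Tap1 promoter is printed (RefSeq, GRCm38.p6, chr17:34187306-34187585, plus strand); it holds no match to the 3 motifs searched, hence no capitals.
Tap1: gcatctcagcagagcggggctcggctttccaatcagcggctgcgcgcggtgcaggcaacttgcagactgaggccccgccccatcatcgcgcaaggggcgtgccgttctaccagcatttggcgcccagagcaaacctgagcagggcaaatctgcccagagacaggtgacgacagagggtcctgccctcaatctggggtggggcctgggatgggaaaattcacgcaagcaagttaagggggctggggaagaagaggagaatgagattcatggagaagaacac

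Tapasin, encoded by Tapbp (ENSMUSG00000024308, chr17:34134873-34148267, plus strand), bridges TAP and the class I molecule. It was at 10356, 11801 and 10923 in KE and at 3839, 4425 and 3683 in NT, with no overlap between the groups. Its log2FC was 1.47 ± 0.08 (limma adjusted p = 8.2e-08). Tapbpl encodes TAPBPR, a peptide editor that acts apart from TAP (ENSMUSG00000038213, chr6:125200373-125208994, minus strand). Its values of 883, 842 and 838 in KE and 319, 389 and 321 in NT did not overlap either. Its log2FC was 1.32 ± 0.10 (limma adjusted p = 9.8e-07), and the 95% intervals of Tapbpl (1.11 to 1.53) and Tapbp (1.30 to 1.64) overlapped.

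Erap1 encodes the aminopeptidase that shortens peptides to the length class I molecules hold (ENSMUSG00000021583, chr13:74787687-74841320, plus strand). It was at 5268, 4928 and 5479 in KE and at 2236, 3378 and 2458 in NT. NT replicate 2 stood above the other NT cultures, and the NT SD of 605 around a mean of 2691 was the widest of the 10 in relative terms (22.5% of the mean). The groups still did not overlap, the lowest KE culture being 1.46 times NT replicate 2. Its log2FC was 0.98 ± 0.12 (limma adjusted p = 6.4e-05), and 1.15 without NT replicate 2. The promoter of Erap1 holds an ISRE core at the start itself (RefSeq, GRCm38.p6, chr13:74639603-74639882, plus strand), shown in capitals and read on the other strand.
Erap1: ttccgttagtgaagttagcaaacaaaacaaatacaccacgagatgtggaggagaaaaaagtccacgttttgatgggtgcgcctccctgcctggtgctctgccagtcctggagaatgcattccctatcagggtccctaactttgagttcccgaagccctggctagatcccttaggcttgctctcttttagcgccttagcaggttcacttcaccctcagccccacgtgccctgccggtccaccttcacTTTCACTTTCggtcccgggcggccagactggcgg

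Promoter windows of 300 bases were in the RefSeq table for 8 of the 10 genes. The ISRE core was in those of Erap1 (bases -4 to 6 from the start) and Psme1 (10 to 19), and in 3.44% of all 32851 windows. GAS was in that of Psmb8 (-97 to -89) and in 8.30% of all windows. An NF-kappaB site was in none of the 8 and in 4.51% of all windows. With the canonical starts of Gencode vM39 on GRCm39, which differ for several genes, no antigen-processing gene had an ISRE core in its window and Psmb8 had a GAS match at another site (11 to 19) than the one printed. A match is a description of the letters and shows no binding.

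Levels were compared between the 10 genes per kb of longest coding transcript. In KE the order of the means was Tapbp (3699), Psmb8 (3198), Psme2 (2473), Tap1 (2202), Psmb10 (1988), Psmb9 (1257), Psme1 (1210), Tap2 (1029), Erap1 (919) and Tapbpl (341). The ranges over cultures overlapped between Psme2 and Tap1, between Tap1 and Psmb10 and between Psmb9 and Psme1, and not between the other neighbours. In NT the order was Psme2 (1498), Tapbp (1336), Psmb8 (1024), Psmb10 (752), Tap1 (658), Psme1 (583), Erap1 (473), Tap2 (366), Psmb9 (363) and Tapbpl (137). There, Psme2 overlapped Tapbp, and each gene from Psmb10 down to Psmb9 overlapped its neighbour. Psme2 stood first in NT and behind Tapbp and Psmb8 in KE, while Psmb9 moved from ninth to sixth. By coding length, Psme1 stood first in NT (3300) and second in KE (6844), with Psme2 second in NT, and Psmb9 moved only from eighth to seventh, so these places depend on the length used. Tapbpl was last by either length. The spread between cultures was 2.68% to 8.45% of the mean in KE and 6.82% to 22.5% in NT. NT replicate 2 was the highest NT culture for 9 of the 10 genes, and KE replicate 2 the highest KE culture for 6.

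Other genes of the proteasome were near 0. Of 11 further subunits of the 20S core, 3 were called higher and 8 not called, with a median log2FC of 0.05. The 3 were Psma6 (log2FC 0.25, limma adjusted p = 0.0021), Psma3 (0.16) and Psmb3 (0.16). Of 18 subunits of the 19S particle, which unfolds ubiquitin-tagged proteins, 3 were called higher (Psmd11 0.26, Psmc5 0.18 and Psmd4 0.15) and 15 were not called, with a median of 0.01. Both medians lie beside that of all tested genes, 0, and both shares called higher lie near or below its 25.3%. Psmf1, which encodes the proteasome inhibitor PI31, was called higher (1738 ± 21.3 in KE, 1288 ± 67.1 in NT, log2FC 0.43, limma adjusted p = 2e-04). Psme3 and Psme4 encode the nuclear activators PA28 gamma and PA200 and were called lower, at log2FC -0.15 and -0.21. Among 5 assembly chaperones, Psmg1 was called lower (log2FC -0.43, limma adjusted p = 0.0024) and 4 were not called, among them Pomp (0.17), which encodes the chaperone of newly formed particles; over all tested genes 26.0% were called lower. The calls of Psma3, Psmb3, Psmd4, Psme3 and Psme4 lay close to the threshold (limma adjusted p of 0.032 to 0.047). They were lost when single cultures were left out, as was that of Psmc5 without NT replicate 1. With a block for replicate number, or without NT replicate 1, 1 assembly chaperone was called higher.

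The molecules that the pathway loads rose with it. H2-K1 and H2-D1, the classical class I heavy chains of this strain, had log2FCs of 1.72 and 1.67 (limma adjusted p = 1.2e-07 for each). H2-K1 was at 49825 to 59547 in KE and 14288 to 18119 in NT, and H2-D1 at 41918 to 48849 in KE and 12335 to 15761 in NT; class I genes share reads, so their split between genes is uncertain. B2m, their common light chain, was at 74617 ± 2270 in KE and 32378 ± 2610 in NT (log2FC 1.21, limma adjusted p = 2e-07). The other loading partners, folding chaperones and Uggt1, a glucosyltransferase that senses misfolded glycoproteins, were not called higher: Pdia3 (ERp57), Canx (calnexin) and Uggt1 were not called, with log2FCs of 0.07, -0.11 and -0.12, and Calr (calreticulin) was called lower at -0.16 (limma adjusted p = 0.033), a call lost under 7 alternatives. Thus, of 5 loading partners, 1 was called higher and 1 lower, near the shares of 25.3% and 26.0% over all tested genes.

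Peptidases that trim or destroy peptides outside the endoplasmic reticulum were mostly not called higher. Of 7 listed, 4 were called lower, 1 higher and 2 were not called, with a median log2FC of -0.20, against 26.0% called lower and 25.3% higher over all tested genes. Blmh, bleomycin hydrolase, was at 2100 ± 82.7 in KE and 2871 ± 50.7 in NT (log2FC -0.45, limma adjusted p = 6.5e-05). Thop1, an oligopeptidase that degrades class I ligands, had a log2FC of -0.36 (limma adjusted p = 0.0052), and Tpp2, a giant cytosolic peptidase, of -0.32 (0.0081). Ide fell by 0.20 and Lap3, leucine aminopeptidase, rose by 0.15, both with calls lost when single cultures were left out.

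Of 8 regulators of class I transcription, 4 were called higher, 1 lower and 3 not called, with a median log2FC of 0.21, against 25.3% called higher and 26.0% lower over all tested genes. Irf1, an interferon-induced transcription factor, was at 2526 ± 16.1 in KE and 1007 ± 100 in NT (log2FC 1.33, limma adjusted p = 1.7e-07). Nlrc5, the class I transactivator, was at 2107 to 2640 in KE and 877 to 1124 in NT (log2FC 1.31, limma adjusted p = 2.2e-06). The partners of NLRC5 on the promoter differed from it: Rfx5 was called higher at 0.25, Rfxap lower at -0.28, and Rfxank was not called (-0.01). Of the NF-kappaB subunits, Rela was called higher at 0.26 with overlapping groups, and Nfkb1 was not called (0.17). The calls of Rfx5, Rfxap and Rela were lost under several of the alternatives.

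**Figure D3:**
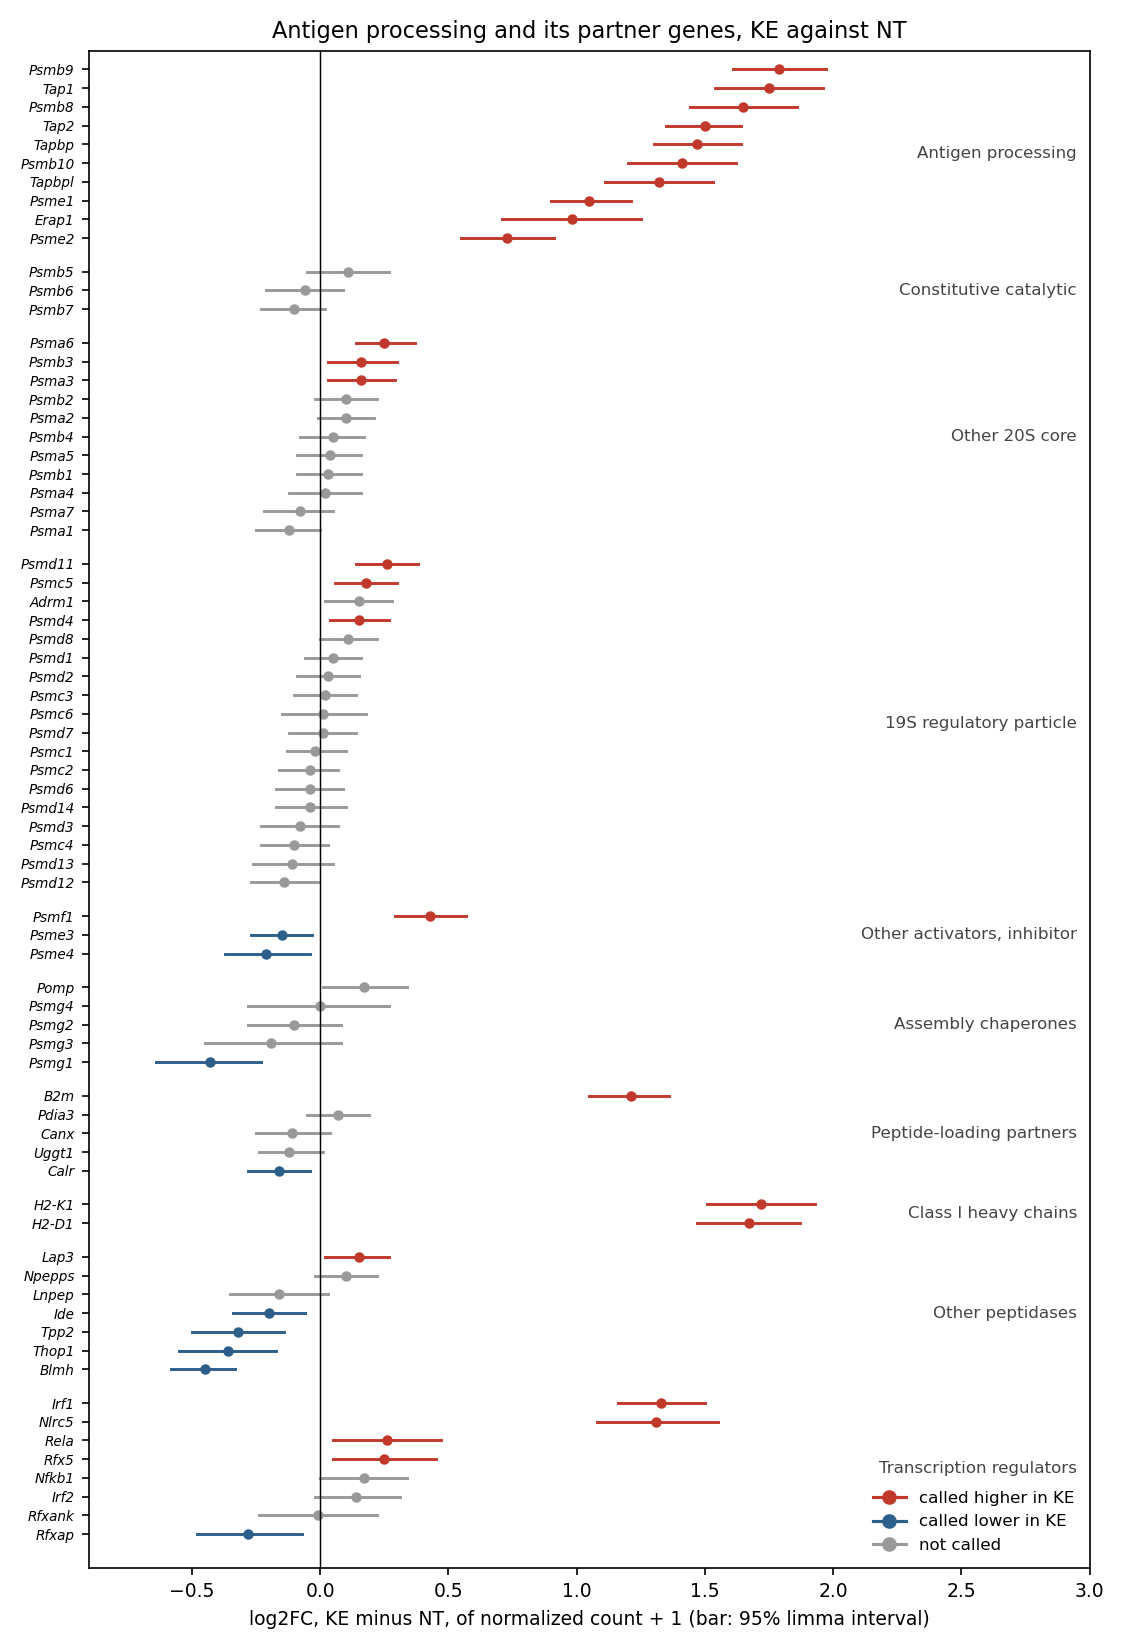
log2FC (KE minus NT) with its 95% limma interval (n = 3 per group) for the antigen-processing genes and the other lists, red for genes called higher, blue for lower and grey for not called. The antigen-processing genes, H2-K1, H2-D1, B2m, Irf1 and Nlrc5 lie at or above 0.73, and every other gene drawn lies at or below 0.43.

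Psmb9, Tap1, Psmb8 and Tap2 stand side by side in the class II region of the MHC on chromosome 17, with log2FCs of 1.79, 1.75, 1.65 and 1.5. None of their class II neighbours that were tested was called higher. Over all tested genes 25.3% were called higher, and a count from so few neighbours cannot be told from that share. H2-DMb1 was called lower (69.9 in KE, 111 in NT, log2FC -0.66, limma adjusted p = 0.0072), and H2-DMa was not called (147 and 149). H2-Ab1 and H2-Eb1, chains of the class II molecule itself, had means of 15.9 and 21.6 in KE against 12 and 16 in NT and were not called. H2-DMb2, H2-Ob and H2-Aa had means under 10 over the 6 cultures and were not tested. H2-DMb2 was at 11.9 to 14.3 in NT and listed at 0 in all KE cultures. Brd2, beyond the class II genes, was called higher at 0.27. Tap1 and Psmb9 overlap on opposite strands at their starts in Gencode vM39, and whether counting used strand is not given in the sources used here, so reads there cannot be assigned with certainty.

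**Figure D4:**
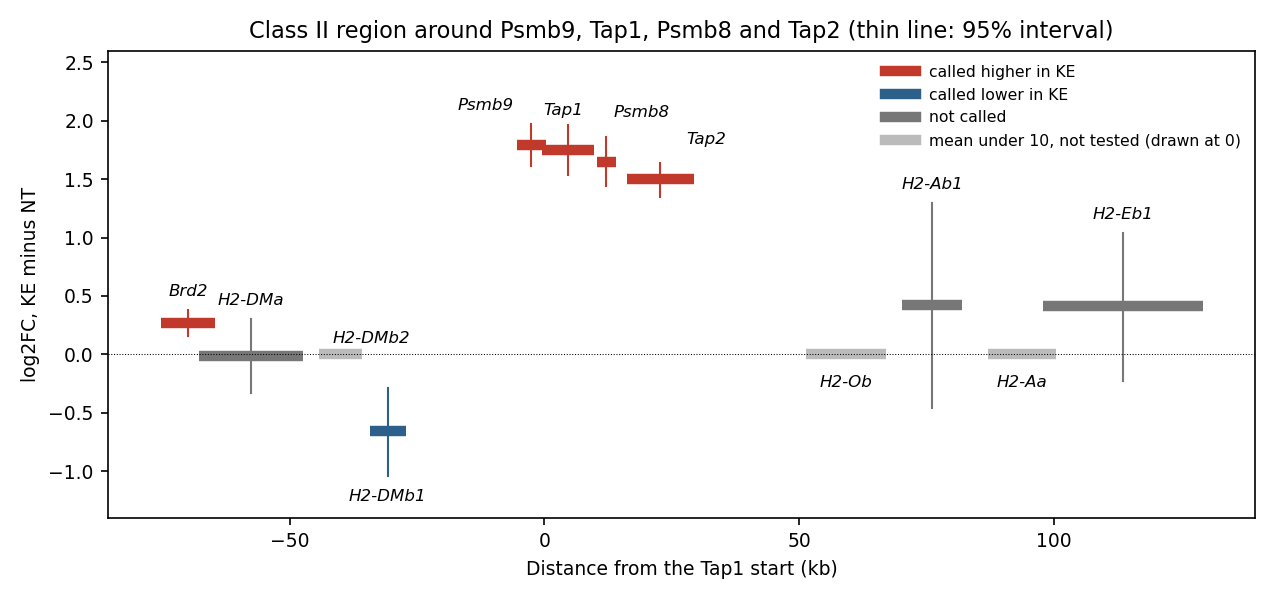
log2FC (KE minus NT) of genes around Tap1, drawn over each gene's extent in kb from the start of Tap1's canonical transcript, with a thin line for the 95% limma interval (n = 3 per group). Psmb9, Tap1, Psmb8 and Tap2 lie between 1.5 and 1.79. The tested class II genes on either side lie at 0.42 or below, with wide intervals for H2-Ab1 and H2-Eb1.

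Genes outside the lists were ranked by how closely their log2 values, relative to the NT mean, followed the median antigen-processing gene over the 6 cultures. That median was 1.39, 1.53 and 1.38 in KE replicates 1 to 3 and -0.06, 0.17 and -0.11 in NT replicates 1 to 3. Of 11955 candidates with a mean of at least 100, the nearest by root mean square difference were Hap1 (0.0393), 4933412E12Rik (0.0463), Tspo (0.0497), Sqstm1 (0.0503) and Oas1c (0.0556). Their log2FCs were 1.42, 1.44, 1.43, 1.48 and 1.47. With 2 groups and 6 cultures, likeness mostly reflects the size of the log2FC.

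Cell type markers also differed between the groups, in both directions. The summed normalized count of the 10 genes was 45792 to 48681 in KE and 16961 to 21120 in NT, a ratio of means of 2.52. The summed microglia and macrophage markers went the other way, at 0.126 of the NT mean, with all 16 lower and none at 0: Itgam fell by 4.07, Cx3cr1 by 3.97 and P2ry12 by 0.88 on the log2 scale. Both differences follow the group labels, and a link between them was not tested. Of 12 astrocyte markers, 8 were called higher and 2 lower, with a summed level of 205902 to 212360 in KE and 148755 to 157935 in NT, a ratio of 1.37. Single astrocyte markers lay between log2FC -0.60 (S100b, not called) and 0.97 (Atp1b2, 1.96-fold), and Gfap was at 0.87 and Slc1a2 at 0.85, above the 0.73 of Psme2. Of 9 tested oligodendrocyte lineage markers 7 were called lower and 1 higher, of 7 tested neuronal markers 2 lower and 1 higher (Slc17a6 was at 0 in all cultures), and of 8 tested vascular and mesenchymal markers 2 lower and 3 higher. The shares over all tested genes were 26.0% lower and 25.3% higher, and the neuronal and vascular counts lie near them. These smaller counts were unstable: the oligodendrocyte calls lower numbered 4 without KE replicate 3, without NT replicate 2 or in limma without the trend, the vascular calls higher 1 without KE replicate 3 or without the trend, the vascular calls lower 1 without NT replicate 2 or with a mean of at least 50, the neuronal calls higher 2 without KE replicate 1, without the trend or after quantile normalization, and the astrocyte calls lower 1 without the trend or without any single culture other than KE replicate 2 or NT replicate 1. The part of cell composition in the size of each rise was not tested.

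**Figure D5:**
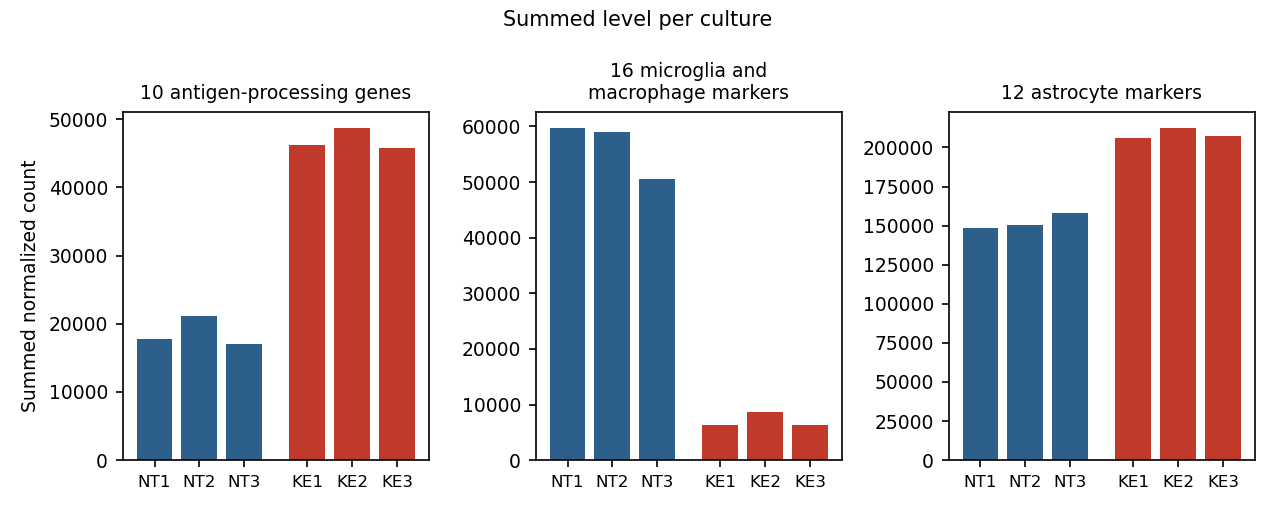
Summed normalized counts in each of the 6 cultures for the 10 antigen-processing genes, 16 microglia and macrophage markers and 12 astrocyte markers, with blue bars for NT and red for KE. The sums of antigen-processing genes and of astrocyte markers are higher in KE than in NT without overlap, and that of microglia and macrophage markers is lower without overlap.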

How the data were processed

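mRNA libraries (TruSeq stranded mRNA kit) of 6 astrocyte cultures, 3 KE and 3 NT by their labels, were analysed. The authors deposited, for each gene, a normalized signal: Salmon gene counts divided by DESeq2 size factors, after Trim Galore and STAR; the submitters' processing notes name GRCh38, a human build, but the gene identifiers are mouse, and the methods, in a paragraph that names mouse hippocampus and human spheroid samples, give GRCm39 with Gencode vM28, taken as the build here. They also mention adjusting for batches, which are not named, so none was modelled. Scaling removes depth and places cultures on 1 scale if most genes keep their level. Here 25.3% of tested genes were called higher in KE and 26.0% lower, and whether the condition holds was not tested. Such scaling also tends to set the median log2FC over all genes near 0. Only 74.7% to 77.6% of low values came within 0.1 of whole reads (95% required), so whole reads were not recovered, no counting error could be given, and precision rests on the spread between cultures.

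log2(normalized count + 1) of genes with a mean of at least 10 was fitted by group with limma 3.58.1 (R 4.3.3, variance trend, two-sided), with Benjamini-Hochberg adjustment over 15280 genes and calls at an adjusted p under 0.05. Tested on simulated data for this comparison over 15280 genes, the fit called 88% of changes of 0.75, 99% of changes of 1.5 and 8 of 15080 unchanged genes. The simulation changed only 100 genes by each size and gave all genes the same scatter setting. Far more genes were called in the real data, so these rates need not hold there. Shares were compared by an exact permutation test over 20 splits. Coordinates and lengths came from Gencode vM39 (54749 of 55357 identifiers matched) and promoters from RefSeq. The genes named were the 10 antigen-processing genes, Braf, the lists of proteasome, loading, peptidase, regulator and marker genes, the nearest 2 coding genes on each side of each of the 10, near-identical copies, the class II genes of the map and the 5 genes of most like pattern; all were chosen with earlier results of these data known. Alternatives were other pseudocounts, filters, scalings and gene lengths, limma without trend, a replicate block and leaving out each culture. Values of some single genes are left out of this report and of its counts.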

Additional observations from a re-analysis of the deposited data

How the results depend on the processing

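All 10 antigen-processing genes were called higher under each of the 14 alternatives, with log2FCs of 0.64 to 0.80 for Psme2, 0.86 to 1.15 for Erap1 and 1.73 to 1.82 for Psmb9, and adjusted p-values of at most 0.0045. The 3 immunosubunit shares were higher in KE under the 9 alternatives run for them (other lengths, each culture left out, the block); leaving out a culture gave 24.0 to 27.8 points (Psmb8), 20.7 to 22.0 (Psmb9) and 24.4 to 27.4 (Psmb10). The calls in the other 9 pathway lists were less stable: 15 higher became 9 in limma without the trend and 9 to 13 when a culture was left out (9 without NT replicate 1), and 9 lower became 5 without the trend and 4 to 7 when a culture was left out (5 without KE replicate 1, 4 without NT replicate 3); with fewer samples the tests lose power, and the cause of the other changes was not tested. Deviations of same-numbered cultures correlated at 0.059, 0.066 and 0.065, under 0.1, so the numbers were not taken as pairs, although each culture correlated best with its own number. With the replicate block, 10 of 10 antigen-processing genes, 16 higher and 10 lower pathway genes and 16 lower microglia markers were called, and the shares were higher by 26.0, 21.4 and 25.6 points with an exact sign-flip p of 0.25, the smallest that 3 pairs allow. No scaling moved the median log2FC of all genes by more than 0.027. Each scaling brings the cultures to a common level, so this small shift cannot show that the scaling is right. Depth before scaling is only estimated, and 3 cultures per group from 1 transfection design limit what these values can show.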

Other observations

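Genes next to the antigen-processing genes moved in both directions. Of 25 neighbours in all, the nearest 2 coding genes on each side of each gene, 17 were tested, and 9 were called higher, 2 lower and 6 not called; over all tested genes, 25.3% were called higher and 26.0% lower. Lcat, an enzyme of cholesterol esterification that astrocytes release, lies 762 bases from Psmb10 and was at 638 ± 30.1 in KE and 218 ± 11.3 in NT (log2FC 1.54, limma adjusted p = 2.4e-07), beside 1.41 for Psmb10. Daxx, a chaperone of histone H3.3, lies 309 bases from Tapbp and was at 2217 ± 142 in KE and 1034 ± 72.6 in NT (log2FC 1.10, limma adjusted p = 5.4e-07). On the other side of Tapbp, Zbtb22 overlaps it on the same strand and was called lower (log2FC -0.44, limma adjusted p = 0.00041), and Rgl2 was not called (-0.07). Near Psme2, Rnf31, which encodes a ubiquitin ligase and overlaps it on the other strand, had a log2FC of 0.71, and Irf9, a subunit of the interferon-activated factor ISGF3, one of 0.87 (4021 ± 137 in KE, 2199 ± 184 in NT, limma adjusted p = 1.9e-06). Cast, which encodes calpastatin and overlaps Erap1 on the other strand, had a log2FC of 0.55 (limma adjusted p = 0.0032). Vamp1 and Emc9, which overlap Tapbpl and Psme1, had log2FCs of 0.36 and 0.37.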
